A study of Homo sapiens with 6 samples.

Results

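The genes that encode the proteasome and its assembly chaperones were examined in papillary thyroid carcinoma cells with and without overexpression of RRM2, the small subunit of ribonucleotide reductase. Members were all protein-coding genes named PSM followed by a letter from A to G and a number, and 48 of the 58735 genes in the table met this rule. By their known roles they comprised 14 constitutive core subunits, 3 immunoproteasome subunits (PSMB8, PSMB9 and PSMB10), 2 tissue-restricted core subunits, 17 subunits of the 19S regulatory particle, 7 assembly chaperones, and 5 other activators and inhibitors. The rule used names only and no measured value.

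The proteasome is the protease that degrades proteins tagged with ubiquitin. Its barrel-shaped core is built from outer rings of alpha subunits (PSMA), which gate the entrance, and inner rings of beta subunits (PSMB), some of which cut peptide bonds. The 19S regulatory particle caps the core: its base contains ATPases (PSMC) that unfold the substrate, and its lid (most PSMD genes) holds PSMD14, which removes the ubiquitin chain. In leukocytes, and in many other cells after interferon gamma, PSMB8, PSMB9 and PSMB10 take the places of the constitutive catalytic subunits PSMB5, PSMB6 and PSMB7, and the resulting immunoproteasome yields peptides suited to MHC class I presentation. The transcription factor NRF1, encoded by NFE2L1, is known to raise proteasome genes together when proteasome activity is low.

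RNA sequencing was performed on 3 libraries of wild strain TPC-1 cells, a line from a papillary thyroid carcinoma, and on 3 libraries of an RRM2 overexpression strain made from it (RRM2-OE-TPC-1). The overexpression strain was obtained by lentiviral infection with the LV18 vector, in which a CMV promoter drives RRM2, followed by puromycin selection. The control was the uninfected wild strain and no empty-vector strain was analysed here, so effects of RRM2 and of infection, selection or insertion cannot be told apart. No treatment or time point was given for either group, and the study's methods describe the replicates as biological triplicates. The genotype entry of RRM2-OE-TPC-1 replicates 2 and 3 names other genes (RRM3 and RRM4), while their titles name RRM2. RRM2 itself measured 9.17, 9.05 and 8.52 FPKM in TPC-1 and 50.4, 47.5 and 47.2 FPKM in RRM2-OE-TPC-1, so every library labelled as overexpressing was above every control library. The difference was 2.43 on the log2 scale (SE 0.0442, limma adjusted p = 1.11e-08).

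Values are FPKM, that is, fragments scaled to gene length and sequencing depth. For the members this length equals all annotated exon bases, including exons that may not be used in these cells. The same length divides a gene in every library, but FPKM levels of different genes also depend on it. Reads on genes ranged from 14317091 to 17084067 per library, and mitochondrial genes took 4.29% to 5.89% of them. Of the thyroid markers listed, PAX8 was high, at 69.3 ± 1.84 FPKM in TPC-1 against 58.5 ± 1.92 in RRM2-OE-TPC-1 (n = 3 each, SD), whereas NKX2-1 was at 0 in every library and 3 of 11 markers passed the minimum for testing. Among the epithelial markers 3 of 6 were tested. None of the 10 leukocyte markers reached that minimum. Fewer cells of a type and less RNA per cell cannot be told apart in bulk RNA.

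Most proteasome genes had higher levels in RRM2-OE-TPC-1, those of the 19S particle most, while PSMB8, PSMB9 and PSME1 had lower levels. PSMA8, the testis core subunit, and PSMB11, the thymus core subunit, were at 0 in every library, and the other 46 members passed the minimum of 0.5 FPKM and 10 reads in at least 3 libraries. PSMA6 passed it only through the RRM2-OE-TPC-1 libraries, so its call was conditioned on the group in which it was high. Of the 46 members tested, 40 rose and 3 fell at an adjusted p of 0.05 or less (limma on log2 of FPKM + 0.1, two-sided, Benjamini-Hochberg over 13621 genes). Without PSMA6, 39 of 45 rose and 3 fell, with a median log2 fold change of 0.53. Across all genes tested, 67.6% were called in either direction, 34.9% higher and 32.7% lower. A call in itself was therefore common in this comparison, and over all genes the directions were nearly balanced. The median log2 fold change was 0.54 for the members and 0.011 for all genes tested, and 16.2% of all genes lay above the members' median. The groups did not overlap for 44 of the 46 members, beside 72.2% of all genes. At an additional log2 fold change of 1 or more, 4 members rose (PSMD2, PSMD12, PSMB2 and PSMD1), beside 4.48% of all genes. No member fell past that fold, beside 6.97% of all genes. That count of 0 was also given by unadjusted p-values under 0.05 with the fold (0) and by voom (0).

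**Figure D1:**
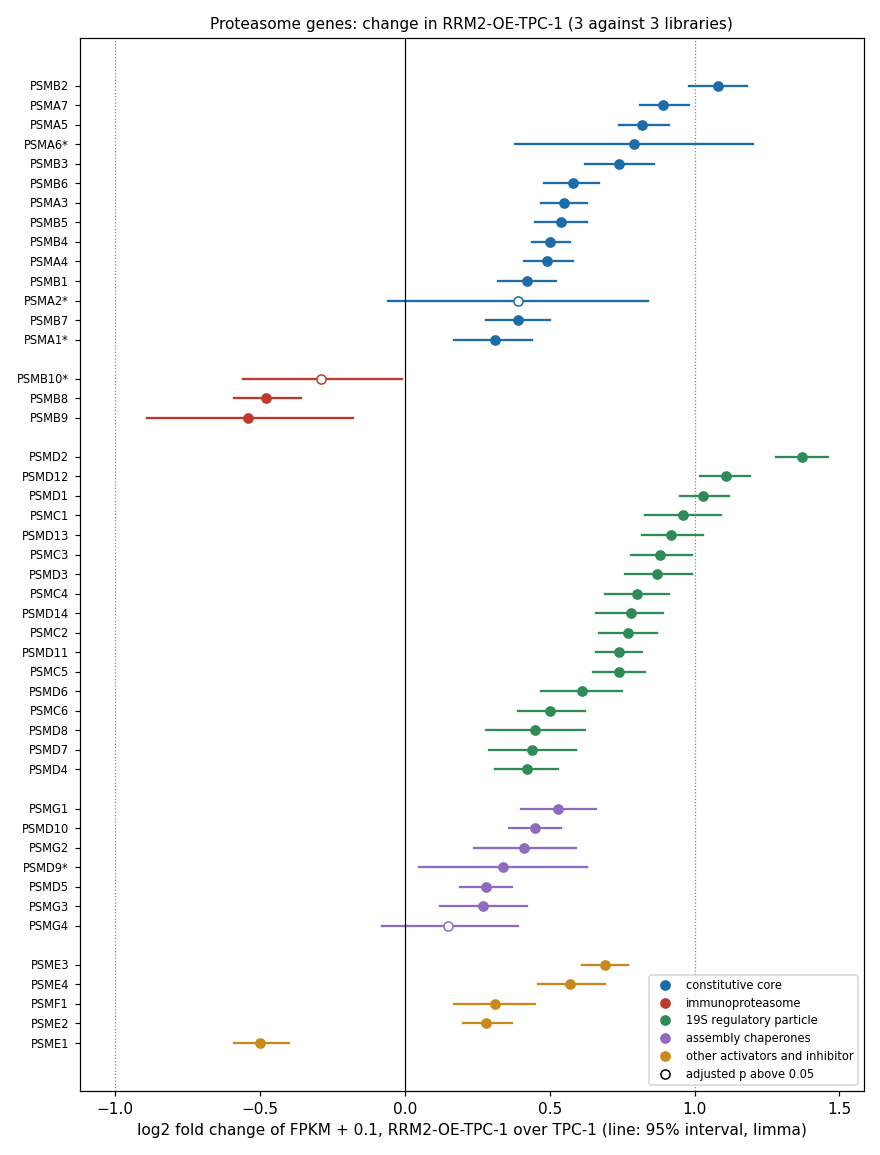
Log2 fold change of the 46 tested proteasome genes (RRM2-OE-TPC-1 over TPC-1, 3 libraries each, FPKM + 0.1), grouped by class and sorted by size. Lines are 95% intervals from limma, open points have an adjusted p above 0.05, dotted lines mark a log2 change of 1 either way, and asterisks mark members sharing over 10 percent of coding bases with another gene on the same strand. All points of the 19S particle and the constitutive core are right of 0, and the 3 immunoproteasome subunits and PSME1 are left of it. PSMA6 is drawn as called, although it reached the minimum for testing through the RRM2-OE-TPC-1 libraries alone.

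All 17 genes of the 19S regulatory particle rose, by 0.42 to 1.37 on the log2 scale with a median of 0.78, and their groups did not overlap. Over all genes tested, 34.9% were called higher and the groups did not overlap for 72.2%. The genes for the particle summed to 441, 416 and 427 FPKM in TPC-1 and to 777, 784 and 763 FPKM in RRM2-OE-TPC-1, a ratio of 1.81 between the means. PSMD2, the base scaffold that receives ubiquitin shuttle factors, changed most of all members. It measured 65.9, 62.3 and 62.6 FPKM in TPC-1 and 171, 163 and 159 FPKM in RRM2-OE-TPC-1, with a wide gap between the groups. The change was 1.37 on the log2 scale (SE 0.0397, limma adjusted p = 9.25e-08), a 2.58-fold difference. PSMD1, the other large scaffold of the base, went from 27.1, 26.3 and 28.2 FPKM to 55.0, 57.1 and 55.2 FPKM, a log2 change of 1.03 (SE 0.0371, limma adjusted p = 2.40e-07). The base ubiquitin receptor PSMD4 had a smaller change, from 56.7 ± 2.95 to 75.8 ± 3.04 FPKM (n = 3 each, SD), or 0.42 on the log2 scale, so that the base non-ATPase genes held both the largest and the smallest change of the particle.

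The 6 ATPases that form the base ring rose within a narrow range, from 0.50 for PSMC6 to 0.96 for PSMC1, with a median of 0.79. Their FPKM levels, into which gene length enters, differed more than their changes. PSMC3 was highest, at 45.1 ± 1.74 FPKM in TPC-1 against 83.3 ± 3.8 in RRM2-OE-TPC-1. PSMC1 was lowest in TPC-1, at 8.02 ± 0.494 and 15.7 ± 0.503 (n = 3 each, SD). PSMC2, PSMC4 and PSMC5 rose by 0.77, 0.80 and 0.74. For PSMC1, 47.7% of the coding bases lie in exons of another gene on the opposite strand (NRDE2). The sources do not say whether counting used strand, so its values are less certain.

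The 8 lid genes rose with a median of 0.76. PSMD12, a scaffold subunit of the lid, measured 10.8, 11.5 and 11 FPKM in TPC-1 and 24.1, 24.1 and 23.9 FPKM in RRM2-OE-TPC-1. Its RRM2-OE-TPC-1 libraries were nearly identical and all above the control libraries, with a change of 1.11 (SE 0.0370, limma adjusted p = 1.81e-07). PSMD14, the deubiquitinase of the lid, went from 14.4, 12.6 and 13.6 FPKM to 23.5, 23.3 and 23.0 FPKM, a change of 0.78 (limma adjusted p = 4.22e-06). Among the other lid subunits PSMD13 rose by 0.92, PSMD3 by 0.87, PSMD11 by 0.74 and PSMD6 by 0.61. PSMD8 and PSMD7 rose least, by 0.45 and 0.44, and 30.0% of the PSMD7 coding bases are shared with a gene on the opposite strand.

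In the constitutive core, 13 of 14 genes rose, by 0.31 to 1.08 with a median of 0.54, and none fell (0 also at an unadjusted p under 0.05 and 0 by voom). Without PSMA6, 12 of 13 rose, again with a median of 0.54. Over all genes tested, 34.9% were called higher and 32.7% lower. Of all genes tested, 15.9% lay above this median, compared with 8.23% above that of the 19S particle. Summed levels of the core genes were 736, 706 and 717 FPKM in TPC-1 and 1125, 1127 and 1109 FPKM in RRM2-OE-TPC-1, a ratio of 1.56. PSMB2, a structural beta subunit, led this class. It measured 25.9, 24.5 and 24.7 FPKM in TPC-1 and 50.7, 53.6 and 55.1 FPKM in RRM2-OE-TPC-1, without overlap and with a change of 1.08 (SE 0.0422, limma adjusted p = 3.43e-07). The structural subunits PSMB3, PSMB4 and PSMB1 rose by 0.74, 0.50 and 0.42. The catalytic subunits rose together: PSMB5, the chymotrypsin-like subunit, by 0.54, PSMB6, the caspase-like subunit, by 0.58, and PSMB7, the trypsin-like subunit, by 0.39.

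The alpha ring takes up its subunits in equal number, yet their FPKM levels were far apart. Gene length enters this spread. PSMA4, with a length of 6996 bases, had 2159 reads in TPC-1 replicate 1, and PSMA7, with 1750 bases, had 4638. How much of the spread comes from the length was not tested. PSMA7 was the highest of all members, at 159, 150 and 159 FPKM in TPC-1 and 293, 293 and 284 FPKM in RRM2-OE-TPC-1, a change of 0.89 (SE 0.0372, limma adjusted p = 4.77e-07). PSMA3, PSMA4 and PSMA5 lay between 13.4 and 27.3 FPKM in TPC-1 and rose by 0.55, 0.49 and 0.82. PSMA1 rose by 0.31, from 7.92 ± 0.526 to 9.8 ± 0.29 FPKM (n = 3 each, SD). PSMA6 and PSMA2 were listed below or near 1 FPKM. PSMA6 measured 0.396, 0.430 and 0.338 FPKM in TPC-1 and 0.808, 0.628 and 0.801 FPKM in RRM2-OE-TPC-1, with a log2 difference of 0.79. No test is given for it, since it reached the minimum through the higher group alone. PSMA2 measured 0.730, 0.635 and 0.553 FPKM in TPC-1 and 1.02, 0.656 and 0.953 FPKM in RRM2-OE-TPC-1. Its groups overlapped, its 95% interval ran from -0.06 to 0.84, and it was the core gene that was not called (limma adjusted p = 0.107). These low values are uncertain as levels, since 100% of the coding bases of PSMA2, 89.7% of those of PSMA6 and 91.0% of those of PSMA1 lie in exons of another annotated gene on the same strand. The sources used here do not say how such reads were counted, and the part of this sharing in the values was not tested.

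**Figure D2:**
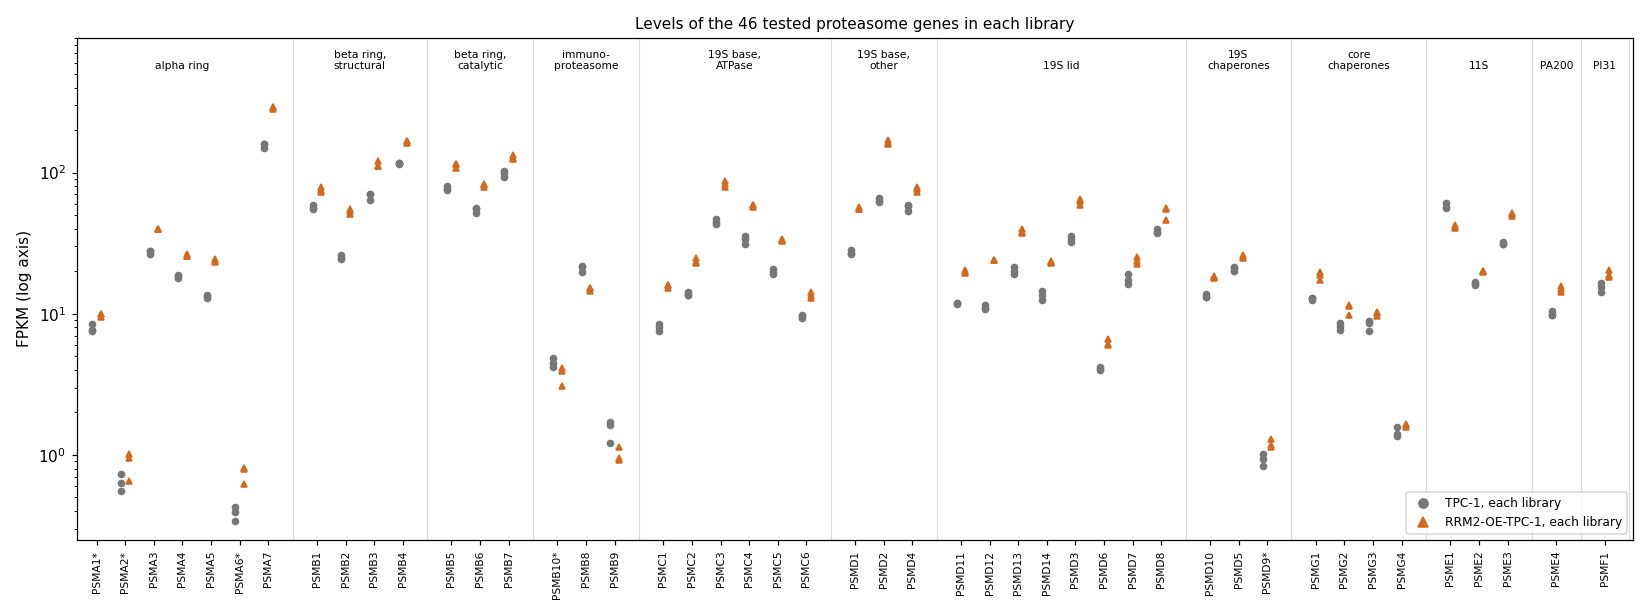
FPKM of the 46 tested proteasome genes in each library on a log axis, grouped by role, with circles for the 3 TPC-1 libraries and triangles for the 3 RRM2-OE-TPC-1 libraries. Asterisks mark the 5 members sharing over 10 percent of coding bases with another gene on the same strand. Levels span from PSMA6, at 0.388 FPKM on average in TPC-1, to PSMA7, at 156, and the triangles lie above the circles for all genes of the core and the 19S particle except PSMA2, whose groups overlap.

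Of the immunoproteasome subunits, PSMB8 and PSMB9 fell, opposite to the constitutive subunits whose places they take, and PSMB10 did not pass the test. None of the 3 rose (0 also at an unadjusted p under 0.05 and 0 by voom). Over all genes tested, 34.9% were called higher, 32.7% were called lower, and the groups did not overlap for 72.2%. PSMB8 (chr6:32840717-32844703) measured 21.8, 19.6 and 21.3 FPKM in TPC-1 and 15.3, 14.5 and 15.1 FPKM in RRM2-OE-TPC-1. Its groups did not overlap, and it fell by 0.48 on the log2 scale (SE 0.0489, limma adjusted p = 5.55e-05). PSMB9 (chr6:32844136-32859585), its neighbour in the MHC region, was far lower, at 1.62, 1.22 and 1.70 FPKM in TPC-1 and 0.923, 0.950 and 1.14 FPKM in RRM2-OE-TPC-1, from 41 to 83 reads per library. The groups did not overlap but lay close, and the fall of 0.54 (SE 0.154, limma adjusted p = 0.0148) was not called without TPC-1 replicate 1 or without TPC-1 replicate 3 (highest adjusted p over all alternatives 0.0589). PSMB10 (chr16:67934502-67937087) measured 4.88, 4.49 and 4.23 FPKM in TPC-1 and 3.06, 4.16 and 3.96 FPKM in RRM2-OE-TPC-1. The groups were adjacent without overlap, with a difference of -0.29 (95% interval -0.56 to -0.01, limma adjusted p = 0.0600). The difference was -0.15 without RRM2-OE-TPC-1 replicate 1 and -0.37 without RRM2-OE-TPC-1 replicate 2, where it was called, with the adjusted p ranging from 0.0269 to 0.167 over all alternatives. In the annotation, 60.0% of its coding bases lie in exons of another gene on the same strand, and PSMB8 and PSMB9 share exon bases across strands.

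Each immunoproteasome subunit was compared with the constitutive subunit whose place it takes, within each library, so that scaling between libraries did not enter. PSMB8 made up 22.2%, 20.8% and 21.0% of the reads per length of the PSMB8 and PSMB5 pair in TPC-1 against 11.7%, 11.4% and 12.3% in RRM2-OE-TPC-1. The share thus went from 21.3% ± 0.750 to 11.8% ± 0.472 (n = 3 each, SD), a log2 ratio difference of -1.02. For PSMB9 and PSMB6, PSMB9 made up 2.71% ± 0.504 in TPC-1 against 1.23% ± 0.181 in RRM2-OE-TPC-1, a difference of -1.16. For PSMB10 and PSMB7, PSMB10 made up 4.42% ± 0.0874 and 2.82% ± 0.390, a difference of -0.68. In all 3 pairs the groups did not overlap. The exact two-sided permutation test gave p = 0.1 for each pair and 0.1 after adjustment over the 3 pairs, the smallest value that 3 against 3 libraries allow, so no pair could pass 0.05. In sum over the 3 genes, the immunoproteasome catalytic subunits measured 26.9 ± 1.53 FPKM in TPC-1 against 19.7 ± 0.505 in RRM2-OE-TPC-1 (ratio 0.732). The constitutive catalytic subunits measured 229 ± 5.71 and 321 ± 2.47 FPKM (n = 3 each, SD; ratio 1.40).

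**Figure D3:**
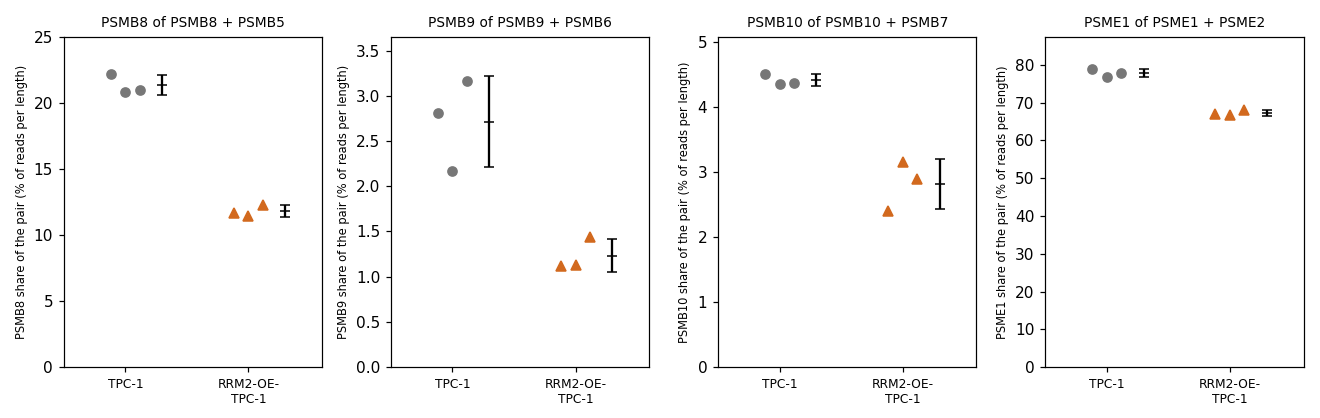
Share of each library's reads per length, in percent, that the first gene takes of each pair (PSMB8 with PSMB5, PSMB9 with PSMB6, PSMB10 with PSMB7, PSME1 with PSME2), with circles for TPC-1, triangles for RRM2-OE-TPC-1, and bars for the mean and SD of 3 libraries. In every pair all RRM2-OE-TPC-1 libraries lie below all TPC-1 libraries, with PSMB8 going from 21.3% to 11.8%.

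Leukocytes carry much immunoproteasome, and their markers were given beside these genes. The 10 leukocyte markers summed to between 0.650 and 0.758 FPKM in the TPC-1 libraries and between 0.334 and 0.509 FPKM in the RRM2-OE-TPC-1 libraries. CD3E, CD8A and MS4A1, markers of T and B cells, were at 0 in every library. PTPRC, the pan-leukocyte CD45 gene, was at 0 in all TPC-1 libraries. The highest marker in any library was CD14, at 0.410 FPKM in TPC-1 replicate 2, where PSMB8 measured 19.6 FPKM. Whether any immunoproteasome RNA came from leukocytes was not tested.

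Of the 5 genes for activators that cap the core in place of the 19S particle and for the inhibitor PSMF1, 4 rose and PSME1 fell. Beside this, 34.9% of all genes were called higher and 32.7% lower. PSME1 and PSME2 encode the alpha and beta subunits of the interferon-inducible 11S ring (PA28) and lie near each other on chromosome 14. PSME1 (chr14:24136158-24138967) measured 61.0, 56.5 and 56.9 FPKM in TPC-1 and 40.9, 40.4 and 42.2 FPKM in RRM2-OE-TPC-1, and fell by 0.50 (SE 0.0397, limma adjusted p = 1.35e-05). PSME2 (chr14:24143362-24147570) measured 16.3, 16.9 and 16.1 FPKM in TPC-1 and 20.2, 20.2 and 19.8 FPKM in RRM2-OE-TPC-1, and rose by 0.28 (limma adjusted p = 1.98e-04). Neither gene's groups overlapped, as for 72.2% of all genes, and the subunits of this ring went opposite ways. PSME1 made up 77.9% ± 1.000 of the pair in TPC-1 against 67.3% ± 0.741 in RRM2-OE-TPC-1 (n = 3 each, SD). This pair was chosen after its values were seen and was given no test. PSME3, which forms the nuclear 11S ring, rose by 0.69, from 31.3 ± 0.569 to 50.7 ± 1.63 FPKM. PSME4, the activator PA200, rose by 0.57, and PSMF1, the inhibitor PI31, by 0.31.

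Of the 7 assembly chaperones, 6 rose, beside 34.9% of all genes. Their median was 0.34, beside 0.54 for the constitutive core, a difference between classes that was not tested. Of the core chaperones, PSMG1 and PSMG2, which pair to guide alpha ring assembly, rose by 0.53 and 0.41, and PSMG3 by 0.27. PSMG4, the partner of PSMG3, measured 1.36, 1.40 and 1.58 FPKM in TPC-1 and 1.63, 1.65 and 1.57 FPKM in RRM2-OE-TPC-1. Its groups overlapped and it was not called (0.15, 95% interval -0.08 to 0.39, limma adjusted p = 0.215). The base chaperones PSMD10 (gankyrin) and PSMD5 rose by 0.45 and 0.28. For PSMD9, at 0.932 ± 0.0904 and 1.20 ± 0.0859 FPKM (n = 3 each, SD), the change of 0.34 (limma adjusted p = 0.0420) was lost under 9 of 15 alternatives, including without each RRM2-OE-TPC-1 replicate in turn and without TPC-1 replicate 1 or 3, with adjusted p up to 0.135. It also shares 68.3% of its coding bases with another gene on the same strand.

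Proteasome genes whose names fall outside the rule were listed separately. Of 13 listed, 12 were found and tested. Of these 8 rose and 2 fell, beside 34.9% and 32.7% of all genes, with a median of 0.24. POMP, the chaperone that drives beta ring assembly and dimerization of the core, measured 49.8, 49.6 and 49.3 FPKM in TPC-1 and 108, 108 and 105 FPKM in RRM2-OE-TPC-1. It rose by 1.11 (SE 0.0295, limma adjusted p = 5.94e-08), more than any of the PSMG chaperones. ADRM1, the ubiquitin receptor that docks on PSMD1, rose by 1.02, from 31.1, 28.7 and 26.5 to 60.5, 55.2 and 59.2 FPKM. SEM1, the smallest lid subunit, rose by 0.54. PAAF1, an ATPase chaperone, was not called (0.21, limma adjusted p = 0.197). The list's members that fell were AKIRIN2, which carries proteasomes into the nucleus (-0.48), and ZFAND5, an activator of the 26S particle (-0.41); these names were given after their values were seen.

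An NRF1 pathway list was taken because NRF1 controls proteasome genes. It held NFE2L1, genes for proteins that process NRF1, and also NFE2L2, KEAP1, MAFF, MAFG and MAFK. Of 11 genes tested, 3 rose and 3 fell, beside 34.9% and 32.7% of all genes, with a median of 0.06. NFE2L1 itself measured 49.8, 48.7 and 50.5 FPKM in TPC-1 and 40.4, 40.0 and 39.4 FPKM in RRM2-OE-TPC-1, and fell by 0.31 (SE 0.0309, limma adjusted p = 4.25e-05). NFE2L2, which encodes the related factor NRF2, fell by 0.56, from 25.1 ± 0.481 to 17.1 ± 0.374 FPKM (n = 3 each, SD). RNA of both factors was thus lower in the libraries in which most proteasome genes were higher. NRF1 is regulated through its processing and stability, which RNA levels do not measure. VCP, the segregase that extracts NRF1 from the endoplasmic reticulum among many substrates, rose by 1.05, from 75.4, 73.0 and 73.2 to 161, 149 and 149 FPKM.

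The antigen processing genes that act after the proteasome moved in both directions, as did all genes tested. Of 16 MHC class I genes tested, 6 rose and 7 fell, beside 34.9% and 32.7% of all genes, with a median of -0.07. TAP1 and TAP2, which carry peptides into the endoplasmic reticulum and lie beside PSMB9 and PSMB8, rose by 0.58 and 0.41. TAP1 measured 4.34, 4.59 and 4.73 FPKM in TPC-1 and 7.34, 6.95 and 6.34 FPKM in RRM2-OE-TPC-1, so it went opposite to PSMB9, which is transcribed away from it. CALR, a chaperone of the peptide loading complex, rose by 1.16. B2M, the light chain of class I molecules, was at 106 ± 2.68 and 106 ± 1.04 FPKM (n = 3 each, SD; difference -0.01, 95% interval -0.08 to 0.06). NLRC5, the transactivator of class I genes, went from 4.27, 4.67 and 4.33 to 2.17, 2.24 and 2.21 FPKM and fell by 0.97 (SE 0.0698, limma adjusted p = 7.45e-06).

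Of 11 interferon gamma pathway genes tested, 2 rose and 8 fell, beside 34.9% and 32.7% of all genes, with a median of -0.43. IRF1, the factor that acts on immunoproteasome promoters, fell by 0.52, from 3.45 ± 0.134 to 2.37 ± 0.0397 FPKM (n = 3 each, SD). Interferon-stimulated genes rose more often than they fell. Of 36 listed, 27 were tested, and 15 rose and 5 fell, with a median of 0.54. Among those that did not reach the minimum through a single group alone, IFI44 and ISG15 rose most, each by 2.19, followed by IFIT3 at 1.57. TRIM22 (1.73) and GBP2 (-1.12), like OAS1, reached the minimum for testing only through the group in which they were higher, and without these 3 genes 14 of 24 rose and 4 fell. ISG15, a ubiquitin-like modifier, measured 12.1, 10.6 and 11.1 FPKM in TPC-1 and 57, 50.7 and 47.6 FPKM in RRM2-OE-TPC-1. The 4 that fell among these 24 were UBE2L6 (-0.67), IFI35 (-0.52), PARP14 (-0.40) and DTX3L (-0.33), named after their values were seen. PSMB8 and PSMB9, which interferon is known to raise, fell, as did 8 of the 11 interferon gamma pathway genes tested. Among the interferon-stimulated genes tested, 15 of 27 rose.

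**Figure D4:**
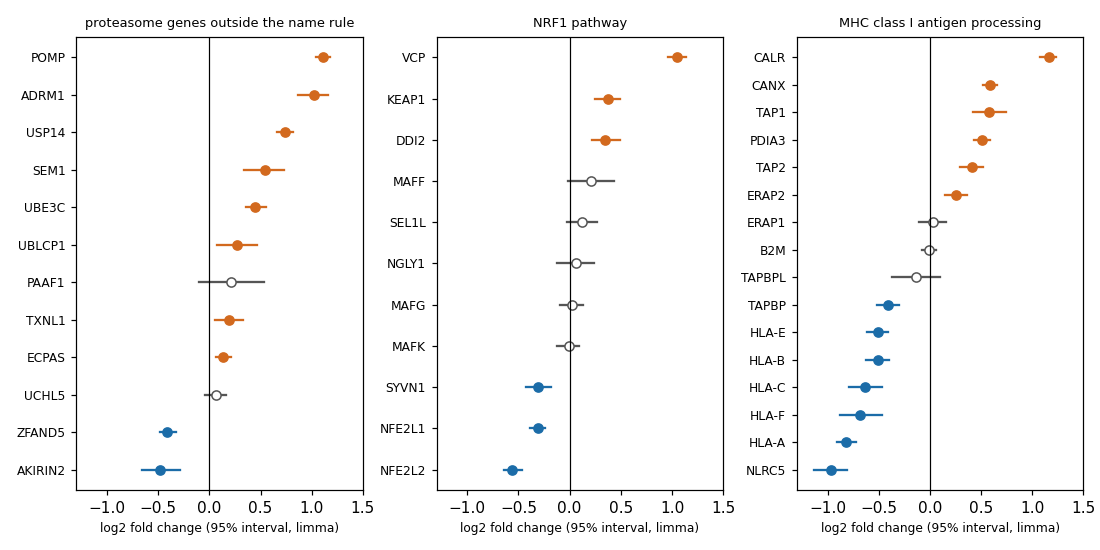
Log2 fold change (RRM2-OE-TPC-1 over TPC-1, 3 libraries each) with 95% intervals from limma for the tested genes of 3 lists: proteasome genes outside the name rule, the NRF1 pathway and MHC class I antigen processing. Orange points rose, blue points fell and open points have an adjusted p above 0.05. POMP (1.11) and ADRM1 (1.02) lie furthest right in their list, while NFE2L1 and NLRC5 lie left of 0.

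Promoters were read to show which letters known for these regulators stand near the starts of genes that moved together. RefSeq promoter windows (GRCh38.p14, 250 bases before to 50 after the start) were given for 42 of the 48 members, in 51 windows. PSMA7, PSMB1, PSMB6, PSMB7, PSMD4 and PSMG3 had none in the table. The antioxidant response element core TGACNNNGC, bound by NRF1 and NRF2, was searched on both strands. It was found for 15 of the 42 members (35.7%), beside 17.9% of 15842 protein-coding genes with a window. Its first letters are also those of the AP-1 site TGACTCA. The stretches below were chosen for 3 genes that rose and 2 that fell, cover bases outside annotated exons, read 5′ to 3′ on the gene's strand, and carry the match in capitals.
PSMB3 (rose, chr17:38752592-38752690, plus strand): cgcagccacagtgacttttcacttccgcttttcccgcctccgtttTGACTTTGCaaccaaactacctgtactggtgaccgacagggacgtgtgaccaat
PSMD12 (rose, chr17:67366689-67366787, minus strand): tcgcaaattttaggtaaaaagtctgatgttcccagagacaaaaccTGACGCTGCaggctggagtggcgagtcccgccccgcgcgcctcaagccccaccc
PSMD3 (rose, chr17:39980725-39980796, plus strand): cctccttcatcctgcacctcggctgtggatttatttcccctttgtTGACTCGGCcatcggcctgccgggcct
PSMB9 (fell, chr6:32853999-32854097, plus strand): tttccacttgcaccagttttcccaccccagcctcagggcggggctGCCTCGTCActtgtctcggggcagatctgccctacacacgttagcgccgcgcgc
PSME1 (fell, chr14:24136063-24136157, plus strand): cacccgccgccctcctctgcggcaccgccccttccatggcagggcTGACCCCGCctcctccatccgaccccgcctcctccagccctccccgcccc
In PSMB9 the match is on the opposite strand and so reads as the reverse complement. Matches thus stood in windows of genes that rose and of genes that fell, and PSMD2, PSMB2 and PSMA5 had none in their windows. The matches of PSMC4 and PSMD1 lay after the start.

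The interferon-stimulated response element core GAAANNGAA was found for 8 of 42 members (19%), beside 9.22% of protein-coding genes, and the gamma-activated site TTCNNNGAA for 8 (19%), beside 8.98%. The CCAAT box was found for 20 (47.6%), beside 42.1%. PSMA4, PSMB4 and PSMC2, which rose, also matched the response element core, whereas PSMB9 matched neither interferon motif. PSMB8 had a gamma-activated site as well, which is not shown. The response element matches of PSMB8, PSMB10, PSME1 and PSME2 are shown in 29 bases each, on the gene's strand, with the match in capitals. Distances are those of the first base of the match, so the PSMB8 match runs across the start.
PSMB8 (fell, chr6:32844032-32844060, minus strand, 3 bases before the start): atctgtggctTTCGCTTTCacttcctcct
PSMB10 (not called, chr16:67936853-67936881, minus strand, 21 bases before the start): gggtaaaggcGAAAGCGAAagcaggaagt
PSME1 (fell, chr14:24136190-24136218, plus strand, 7 bases after the start): ccctaccgctTTCGCTTTCccttcgcggt
PSME2 (rose, chr14:24146620-24146648, minus strand, 28 bases before the start): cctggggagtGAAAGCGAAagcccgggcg
All 4 carry the letters GAAAGCGAA, in PSMB8 and PSME1 on the opposite strand, as does PSMG4, which was not called. In the pair PSME1 and PSME2 the same letters thus stood at genes that changed in opposite directions. A match describes letters only and shows neither binding nor a cause.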

How the data were processed

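RNA sequencing of 3 TPC-1 and 3 RRM2-OE-TPC-1 libraries was analysed from the table of FPKM that the authors deposited. Per the labels' processing notes, HISAT2 2.0.5, featureCounts 1.5.0 and DESeq2 1.20.0 were used with GRCh38.p14, and the methods give FPKM as read counts divided by gene length and depth. The labels describe rRNA removal with RNase R digestion, the methods poly(A) selection, and which applies is not known here. All 58735 gene IDs and positions equalled GENCODE 29, which gave exon overlaps. FPKM times gene length came out as whole reads for 100.0% of values (within 0.01 read), and these recovered reads served for depth, ratios and an alternative test.

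Genes with at least 0.5 FPKM and 10 reads in 3 libraries were tested with limma 3.58.1 (R 4.3.3, lmFit and eBayes with trend) on log2(FPKM + 0.1), without covariates, two-sided, with Benjamini-Hochberg adjustment. The pseudocount understates changes of low genes. Single values came with exact permutation tests in scipy 1.17.1. The fit was tested on simulated data.

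Named genes were all members, RRM2, from each further list up to 4 genes in each direction past adjusted p and a log2 fold change of 1, and TAP1, TAP2, B2M, POMP, ADRM1, SEM1, PAAF1, NFE2L1, NFE2L2, IRF1 and NLRC5, and some genes of these lists are not reported here. Other names were given after their values were seen. The members and lists were chosen with earlier results of these data known. Alternatives were pseudocounts of 1 and 0.01, other filters, other scalings, voom, protein-coding genes only, a replicate block, and leaving out each library.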

Additional observations from a re-analysis of the deposited data

How the results depend on the processing

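Counts of members called higher were 37 to 40 over all alternatives and 38 to 40 when each library was left out. Members called lower were 2 to 4, with the same range when each library was left out, and members past the fold were 3 to 5 (4 to 5 when each library was left out). None fell past the fold under any of them. The 37 came from leaving out the 5 members that share coding bases, an alternative chosen after seeing the data. Of the 45 members tested under every alternative, 41 kept their call. PSMA6 was tested in 12 alternatives only, since it fell below the minimum whenever an RRM2-OE-TPC-1 library was left out, and leaving it out gave 39 members higher and 3 lower, an alternative also chosen after seeing the data. Among the 45, calls changed for PSMB9, which was also lost with no filter on low values, PSMB10, which was called under library totals, with protein-coding genes only and without RRM2-OE-TPC-1 replicate 2, PSMA2, which was called without RRM2-OE-TPC-1 replicate 2 (adjusted p = 0.0252, limma), and PSMD9. No fold change of a member reversed among 687 values, of which 12 fell short of the threshold and 4 newly passed it. When each library was left out, the log2 ratio differences ranged from -1.05 to -0.98 for PSMB8 to PSMB5, from -1.31 to -1.03 for PSMB9 to PSMB6 and from -0.77 to -0.57 for PSMB10 to PSMB7, with an exact p of 0.2, the smallest possible with 2 against 3. Scaling to library totals moved the median of all genes from 0.011 to -0.045.

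The replicate block gave 39 members higher, 3 lower and 4 past the fold. Same-numbered libraries did not deviate together (correlations -0.01, -0.01 and -0.06), so the numbers do not pair the samples. Depth limits PSMB9, PSMA2, PSMA6 and PSMB10 most, with 35 to 151 reads per library.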

Other observations

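A further list held 18 genes for ubiquitin, its activating enzymes and the factors that bring substrates to the proteasome. Of these, 10 rose, 3 fell and 5 were not called, beside 34.9% higher and 32.7% lower over all genes. Their median log2 fold change was 0.27. Past the fold were VCP, given above, and UFD1, its cofactor for ubiquitin chains, which measured 5.32, 5.38 and 4.94 FPKM in TPC-1 and 10.8, 10.4 and 11.3 FPKM in RRM2-OE-TPC-1 and rose by 1.04 (SE 0.0556, limma adjusted p = 1.63e-06). UFD1 and VCP act in 1 complex with NPLOC4, named after its values were seen, which rose by 0.57, from 21.9 ± 0.591 to 32.5 ± 0.631 FPKM (SD, n = 3 each). Among the epithelial markers, KRT18 rose by 1.05, from 41.2 ± 1.78 to 85.2 ± 1.26 FPKM, and KRT8 by 0.43. KRT7 was not called (-0.21), and CDH1, EPCAM and KRT19 were below the minimum for testing. Thus 2 of the 3 epithelial markers tested rose, and 0 fell.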
